A study of Mus musculus with 18 samples.

Results

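The 10 genes described here encode the microtubule-associated proteins (MAPs) of neurons and the stathmins: Map1a, Map1b, Map2, Mapt, Map4, Dcx, Dclk1, Stmn1, Stmn2 and Stmn3. They were chosen by name as a gene family, and they are 10 of the 55153 genes in the RNA-seq count table and of the 54838 genes in the Ribo-seq count table. Each of the 10 had a value in every library of both assays and passed the filter on low counts in every comparison. Cerebral cortices of C57BL/6 mice were taken at embryonic day 15.5 (E15.5). Wild type cortices (Ctrl) were compared with cortices of Fto(f/f, Emx1-cre) mice (F-cKO) and of Mettl3(f/f, Emx1-cre) mice (M-cKO), with 3 libraries per genotype in RNA-seq and 3 in Ribo-seq. Mettl3 writes the m6A mark on RNA and Fto removes it, and the comparisons ask what the loss of either enzyme does to transcript and ribosome levels. The study's methods describe the floxed parents as a cross of C57/BL6 with 129. Emx1-Cre deletes in the cells that arise from cortical progenitors, so interneurons that migrate into the cortex, microglia and vessels keep the gene.

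Microtubules carry cargo and give shape to axons and dendrites, and MAPs bind along them and make them more stable. The structural MAPs divide the neuron between them, with tau (Mapt) known for axons and MAP2 for dendrites, and the doublecortin proteins are needed for newborn neurons to migrate through the cortex. Stathmins act the other way: they hold free tubulin dimers and promote the shrinking of microtubules, and kinases switch this off by phosphorylation.

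The sequence just before the start of 3 of these genes is shown because one rose, one did not pass the test and one fell in RNA-seq of M-cKO cortices. Each run is the 200 bases before the start of the RefSeq gene model (GRCm38.p6), written 5′ to 3′ on the gene's strand: chr2:121289390-121289589 (+ strand) for Map1a, chr13:99516603-99516802 (- strand) for Map1b and chr2:181314501-181314700 (- strand) for Stmn3. Capitals mark E-boxes (CANNTG, the same on both strands), GC boxes (GGGCGG or CCGCCC) and TATA boxes (TATAAA or TTTATA).
Map1a: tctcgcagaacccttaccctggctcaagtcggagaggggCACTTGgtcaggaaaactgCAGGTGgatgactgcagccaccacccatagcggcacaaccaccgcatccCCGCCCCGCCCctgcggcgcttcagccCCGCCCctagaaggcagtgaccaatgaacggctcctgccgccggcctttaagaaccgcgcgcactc
Map1b: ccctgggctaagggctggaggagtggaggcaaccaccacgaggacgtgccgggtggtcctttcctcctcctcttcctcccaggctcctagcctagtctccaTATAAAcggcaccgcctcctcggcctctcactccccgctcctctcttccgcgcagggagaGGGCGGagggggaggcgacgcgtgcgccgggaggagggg
Stmn3: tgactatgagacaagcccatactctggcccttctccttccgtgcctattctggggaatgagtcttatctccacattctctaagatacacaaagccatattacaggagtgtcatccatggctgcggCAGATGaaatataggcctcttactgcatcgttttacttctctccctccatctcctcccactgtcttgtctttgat
The run of Map1a held 2 E-boxes and 3 GC boxes. That of Map1b held 1 GC box and 1 TATA box, and that of Stmn3 held 1 E-box. Among the 32851 RefSeq promoters of the same length, 58.2% held an E-box, 31.0% a GC box and 9.96% a TATA box, so none of these motifs is rare. A match is a description of the letters only.

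RNA-seq libraries held from 18504094 to 22592406 counted reads and Ribo-seq libraries from 10973699 to 35853227. Fto levels were between 2.43 and 7.56 FPKM (fragments per kilobase of gene, scaled to the library total) in F-cKO RNA-seq libraries and between 8.37 and 11.2 FPKM in Ctrl, and in Ribo-seq they were between 2.11 and 4.04 RPKM (reads per kilobase, scaled likewise) against 17.6 to 25.9 RPKM. The highest F-cKO value in RNA-seq, 7.56 FPKM, was that of library 2, close to the lowest Ctrl library, while libraries 1 and 3 had 3.26 and 2.43 FPKM. Mettl3 levels were between 7.82 and 8.61 FPKM in M-cKO RNA-seq libraries and between 5.07 and 6.43 FPKM in Ctrl, so they were higher in the libraries labelled M-cKO. In Ribo-seq they were lower, between 6.02 and 6.78 RPKM against 9.16 to 9.93 RPKM. Counts cover the whole gene, including exons outside the deleted part, so the RNA-seq value of Mettl3 is no check of the labels. The defining markers of the cortex were present, with the 7 cortical excitatory markers summing to between 757 and 988 FPKM. The F-cKO Ribo-seq library 2 stood apart: it was the lowest of the 9 Ribo-seq libraries for all 10 genes, at 30.8% to 71.7% of the Ctrl mean. It was also the Ribo-seq library with the fewest counted reads, 10973699, and the part of depth in its levels was not tested. The main F-cKO values in Ribo-seq and TE are also given without this library.

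Levels of the 10 genes spanned a wide range in Ctrl cortices. On the FPKM scale of RNA-seq, Stmn1 was highest at 1396 ± 81.9 (SD, n = 3), followed by Stmn3 at 474 ± 44.1 FPKM. Mapt (191 ± 21.3 FPKM) and Stmn2 (189 ± 19.4 FPKM) did not differ beyond their spread, nor did Map1b (102 ± 6.88 FPKM) and Dcx (92.7 ± 7.10 FPKM), next in order. Map2 (78.4 ± 6.28 FPKM), Dclk1 (33.2 ± 3.22 FPKM), Map4 (22.0 ± 1.16 FPKM) and Map1a (5.93 ± 0.708 FPKM) followed with ranges that did not overlap. Map1a is known as the MAP1 protein of mature neurons and Map1b as that of the embryo. The order was the same by mean level in F-cKO and M-cKO. In F-cKO the ranges of Stmn2 and Map1b also overlapped. On the RPKM scale of Ribo-seq, Stmn1 was again highest in Ctrl at 2053 ± 172 RPKM and Map1b came next at 644 ± 31.0 RPKM. Together the 10 genes took 1.09% ± 0.0656 of all RNA-seq counts and 2.05% ± 0.0802 of all Ribo-seq counts in Ctrl (SD, n = 3). Their share of RNA-seq counts was between 0.925% and 1.07% in F-cKO, which overlapped with Ctrl, where the lowest share was 1.02%, and between 0.918% and 0.994% in M-cKO, without overlap.

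In RNA-seq the stathmins fell in both knockouts, Map1a rose in both, and Dcx rose in F-cKO. Calls here are adjusted P values below 0.05 from edgeR's quasi-likelihood test, adjusted by Benjamini-Hochberg across the whole table, whatever the size of the fold. In F-cKO 2 of the 10 genes were called higher, beside 11.5% of all 16944 genes tested, and 4 were called lower, beside 9.57%. In M-cKO 1 of the 10 was called higher, beside 15.5% of 16968 genes, and 5 were called lower, beside 14.1%. Over the 10 genes the median log2 fold change was -0.07 for F-cKO and -0.23 for M-cKO, beside -0.01 for all genes tested in either comparison. Both comparisons share the 3 Ctrl libraries. In such bulk tissue, fewer cells of a type and less RNA per cell cannot be told apart.

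**Figure D1:**
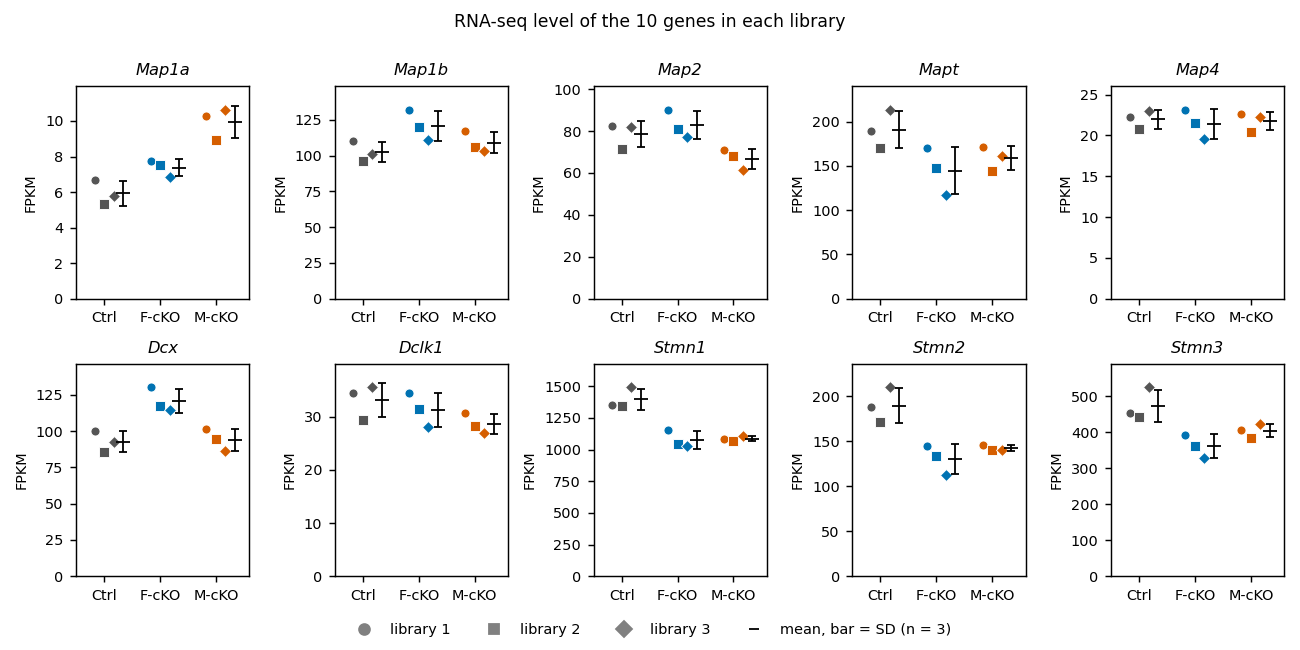
RNA-seq level (FPKM, linear axes from 0) of each of the 10 genes in every library, with symbols for libraries 1 to 3, and the mean and SD (n = 3) as a bar beside each genotype. All 6 knockout libraries lie below the 3 Ctrl libraries for Stmn1, Stmn2 and Stmn3, and all 6 lie above them for Map1a.

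The stathmins hold free tubulin. Stmn1 (ENSMUSG00000028832, chr4:134468320-134473843, GRCm38.p6) is the stathmin of dividing and newborn cells. Its level was 1352, 1346 and 1491 FPKM in the Ctrl libraries, 1154, 1047 and 1025 FPKM in F-cKO, and 1086, 1067 and 1105 FPKM in M-cKO. All knockout libraries were below all Ctrl libraries, and the knockouts overlapped with each other. On the log2 scale the fold change was -0.39 ± 0.071 (SE) in F-cKO (edgeR, adjusted P = 0.0070) and -0.37 ± 0.059 in M-cKO (adjusted P = 0.00096).

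Stmn2 (ENSMUSG00000027500, chr3:8509527-8561604), a membrane-bound stathmin of growing axons, showed the largest fall among the 10 genes in each knockout. Its level was 187, 171 and 209.6 FPKM in Ctrl, 145, 133 and 112 FPKM in F-cKO, and 146, 139.9 and 139.9 FPKM in M-cKO. The groups did not overlap with Ctrl. Stmn2 fell by 31.9% in F-cKO and fell by 25.5% in M-cKO, with log2 fold changes of -0.55 ± 0.10 and -0.42 ± 0.074 (edgeR, adjusted P = 0.0071 and 0.0016).

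Stmn3 (ENSMUSG00000027581, chr2:181306459-181314500), whose upstream sequence is shown above, is a neuronal stathmin of the same kind. Its level was 453, 444 and 524 FPKM in Ctrl, 393, 363 and 327 FPKM in F-cKO, and 405, 385 and 422 FPKM in M-cKO. Both knockouts were below Ctrl in every library. Stmn3 had a log2 fold change of -0.40 ± 0.086 in F-cKO (edgeR, adjusted P = 0.012) and -0.24 ± 0.074 in M-cKO (adjusted P = 0.031). The M-cKO call rested on single libraries: without Ctrl library 3, M-cKO library 1 or M-cKO library 2 the adjusted P was between 0.086 and 0.13, and without Ctrl library 3 the log2 fold change was -0.15. With all 3 genotypes in 1 fit it was -0.23 (edgeR, adjusted P = 0.0504). The calls of Stmn1 and Stmn2 in both knockouts and of Stmn3 in F-cKO held with each library left out in turn and under the other alternatives run.

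Among the structural MAPs, Map1a rose and Mapt fell in both knockouts. Map1a (ENSMUSG00000027254, chr2:121289590-121310832) binds along microtubules and is made as a precursor that is cleaved into a heavy and a light chain. It was 6.705, 5.32 and 5.77 FPKM in Ctrl, 7.75, 7.53 and 6.86 FPKM in F-cKO, and 10.3, 8.91 and 10.6 FPKM in M-cKO. The M-cKO libraries were the highest, the F-cKO libraries lay between, and no group overlapped with another. Map1a had a log2 fold change of 0.30 ± 0.087 in F-cKO (edgeR, adjusted P = 0.034) and 0.74 ± 0.090 in M-cKO (adjusted P = 0.00020). The F-cKO call was lost without Ctrl library 2 or 3 or F-cKO library 1 or 2, with an adjusted P between 0.082 and 0.11 and a log2 fold change between 0.23 and 0.29. The M-cKO call held without any 1 library. The RefSeq model of Map1a overlaps Trp53bp1 over 6765 bases and Ppip5k1 over 276 bases, and the RNA-seq library kit named in the labels does not mark the strand, so reads in the overlaps cannot be assigned by strand. Trp53bp1, at between 14.7 and 14.9 FPKM in Ctrl, had log2 fold changes of 0.37 in F-cKO and 0.17 in M-cKO (edgeR, adjusted P = 0.0035 and 0.036), and Ppip5k1 had -0.18 and -0.57 (adjusted P = 0.28 and 0.0045). In M-cKO Ribo-seq, where Map1a was also higher, Trp53bp1 had -0.02 (adjusted P = 0.90). Their part in the Map1a value was not tested.

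Mapt (ENSMUSG00000018411, chr11:104229409-104332090) encodes tau. It was 189, 171 and 213 FPKM in Ctrl, 169.8, 148 and 117 FPKM in F-cKO, and 171, 145 and 161 FPKM in M-cKO. The F-cKO libraries were all below Ctrl, the highest of them by a narrow margin, and the highest M-cKO library was level with the lowest Ctrl library. Mapt had a log2 fold change of -0.41 ± 0.13 in F-cKO and -0.28 ± 0.086 in M-cKO (edgeR, adjusted P = 0.045 and 0.031). In F-cKO the call was lost without Ctrl library 1 or 3 or F-cKO library 2 or 3 (adjusted P between 0.068 and 0.16, log2 fold change between -0.43 and -0.28). It was also lost there with the replicate number as a block (-0.42, edgeR, adjusted P = 0.082). In M-cKO it was lost without Ctrl library 1 or 3 or M-cKO library 2 or 3 (adjusted P between 0.063 and 0.14, log2 fold change between -0.29 and -0.18), and with all 3 genotypes in 1 fit (edgeR, adjusted P = 0.12).

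Map2 (ENSMUSG00000015222, chr1:66175202-66442583) encodes MAP2 and fell in M-cKO. Its level was 82.3, 71.2 and 81.8 FPKM in Ctrl, 90.1, 81.1 and 76.9 FPKM in F-cKO, and 70.8, 67.9 and 61.5 FPKM in M-cKO. The M-cKO libraries were below all others, the highest just under the lowest Ctrl library, and F-cKO overlapped with Ctrl. Map2 had a log2 fold change of -0.24 ± 0.074 in M-cKO (edgeR, adjusted P = 0.029) and 0.07 ± 0.080 in F-cKO (adjusted P = 0.59). Without Ctrl library 1 or 3 or M-cKO library 2 or 3, the M-cKO value was between -0.25 and -0.18 with an adjusted P between 0.074 and 0.11.

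Map1b (ENSMUSG00000052727, chr13:99421464-99516602), the MAP1 protein of growing axons, did not pass the test in either knockout. It was 109.8, 96.2 and 101 FPKM in Ctrl, 132, 119.8 and 111 FPKM in F-cKO, and 117, 106 and 103 FPKM in M-cKO. The F-cKO libraries were all above Ctrl, and M-cKO overlapped with Ctrl. The log2 fold change was 0.23 ± 0.078 in F-cKO (edgeR, adjusted P = 0.066) and 0.08 ± 0.068 in M-cKO (adjusted P = 0.41). The F-cKO value passed the threshold with DESeq2 (adjusted P = 0.020), with all 3 genotypes in 1 fit (edgeR, 0.041), and without F-cKO library 3 (edgeR, 0.023, log2 fold change 0.29).

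Map4 (ENSMUSG00000032479, chr9:109929841-110083954) is the MAP of most dividing and non-neuronal cells. Its level was 22.2, 20.7 and 23.0 FPKM in Ctrl, 23.1, 21.5 and 19.6 FPKM in F-cKO, and 22.6, 20.5 and 22.2 FPKM in M-cKO. The 3 groups overlapped. The 95% confidence interval of its log2 fold change ran from -0.21 to 0.11 in F-cKO and from -0.17 to 0.12 in M-cKO (edgeR).

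The doublecortin family differed between its members. Dcx (ENSMUSG00000031285, chrX:143855842-143933396), doublecortin itself, was 99.9, 85.7 and 92.6 FPKM in Ctrl, 130.1, 117 and 114 FPKM in F-cKO, and 101, 94.4 and 86.1 FPKM in M-cKO. The F-cKO libraries were above all others, and M-cKO overlapped with Ctrl. The log2 fold change was 0.37 ± 0.075 in F-cKO, or 29.2% higher (edgeR, adjusted P = 0.010), and 0.01 ± 0.074 in M-cKO (adjusted P = 0.93). The F-cKO call held with each library left out in turn (adjusted P up to 0.038). Dclk1 (ENSMUSG00000027797, chr3:55242303-55539068) joins a doublecortin domain to a kinase. It was 34.4, 29.5 and 35.5 FPKM in Ctrl, 34.4, 31.5 and 28.1 FPKM in F-cKO, and 30.75, 28.3 and 26.9 FPKM in M-cKO. All groups overlapped. The log2 fold change was -0.22 ± 0.079 in M-cKO (edgeR, adjusted P = 0.056) and -0.09 ± 0.091 in F-cKO (adjusted P = 0.50), and the M-cKO value passed the threshold with DESeq2 (adjusted P = 0.034) and without Ctrl library 2 (edgeR, 0.014, log2 fold change -0.29).

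Comparing M-cKO with F-cKO tested whether the knockouts differed. Of the 10 genes, 1 was called higher in M-cKO than in F-cKO, beside 13.1% of 16802 genes tested, and 2 were called lower, beside 14.3%. Map1a was higher by 0.42 ± 0.077 on the log2 scale (edgeR, adjusted P = 0.0034). Dcx differed by -0.37 ± 0.077 (adjusted P = 0.0064) and Map2 by -0.32 ± 0.077 (edgeR, adjusted P = 0.013). Without F-cKO library 2, Map2 differed by -0.32 with an adjusted P of 0.0502. The difference of the stathmins between the knockouts was 0.01 for Stmn1, 0.12 for Stmn2 and 0.15 for Stmn3, with 95% confidence intervals from -0.14 to 0.15, from -0.07 to 0.31 and from -0.01 to 0.32 (edgeR, log2 scale).

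Ribo-seq counts the fragments of RNA that ribosomes cover, and so follows the amount of RNA being translated. In M-cKO Ribo-seq, Map1a was again higher and Stmn1 and Stmn2 lower, Map4 was lower, and Stmn3 overlapped with Ctrl. For Ribo-seq of M-cKO 1 of the 10 was called higher, beside 7.13% of 14314 genes tested, and 3 were called lower, beside 7.5%. Their median log2 fold change was -0.23, beside -0.00028 for all genes tested.

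**Figure D2:**
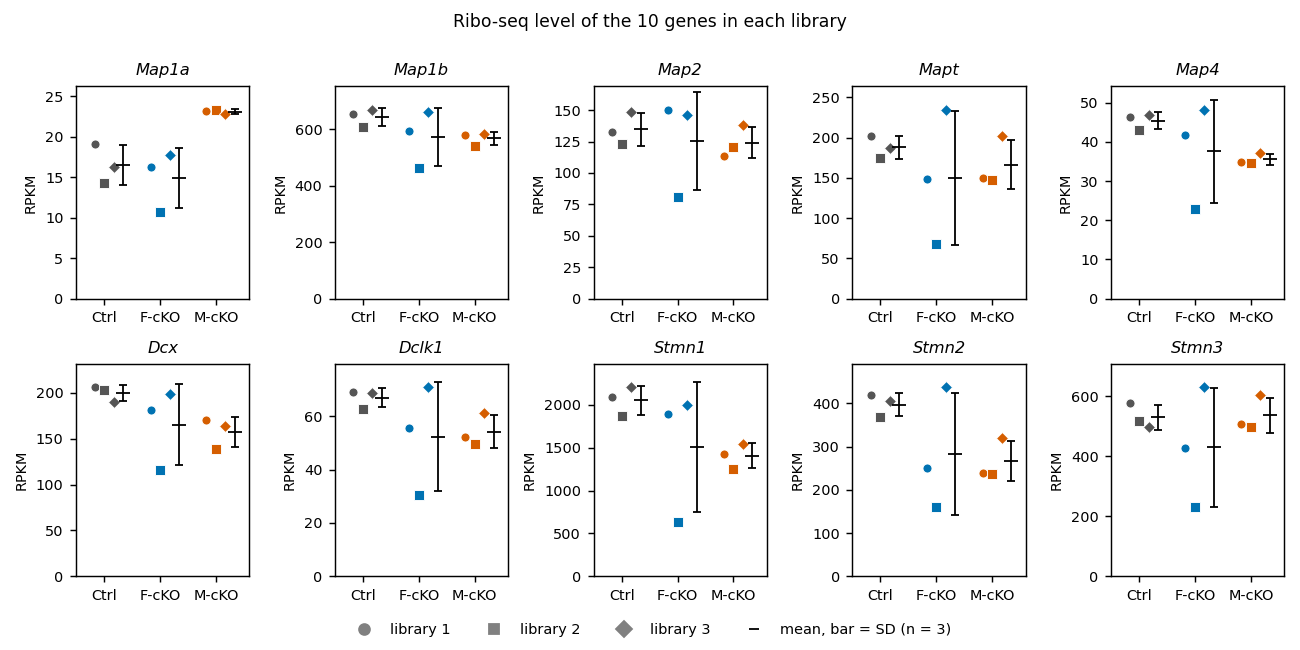
Ribo-seq level (RPKM, linear axes from 0) of each of the 10 genes in every library, with symbols for libraries 1 to 3, and the mean and SD (n = 3) as a bar beside each genotype. The F-cKO library 2 is the lowest of all 9 libraries for each gene. The M-cKO libraries lie below Ctrl for Stmn1, Stmn2, Map4, Map1b, Dcx and Dclk1 and above it for Map1a.

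Stmn1 was 2090.1, 1866 and 2205 RPKM in Ctrl and 1426, 1258 and 1541 RPKM in M-cKO. Stmn2 was 419, 368 and 406 RPKM in Ctrl and 240.1, 238 and 319 RPKM in M-cKO. Neither gene's groups overlapped. Stmn1 fell by 31.0% and Stmn2 fell by 32.7%, with log2 fold changes of -0.54 ± 0.11 and -0.57 ± 0.13 (edgeR, adjusted P = 0.022 and 0.031). Stmn3 was 576, 516 and 496 RPKM in Ctrl and 508, 496 and 603 RPKM in M-cKO, with a log2 fold change of 0.03 and a 95% confidence interval from -0.22 to 0.27.

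Map1a was 19.1, 14.2 and 16.3 RPKM in Ctrl and 23.1, 23.3 and 22.7 RPKM in M-cKO. The M-cKO libraries lay close together and above Ctrl, and the log2 fold change was 0.49 ± 0.12 (edgeR, adjusted P = 0.038). Map4 was 46.4, 43.0 and 46.8 RPKM in Ctrl and 34.8, 34.6 and 37.2 RPKM in M-cKO, without overlap. Its log2 fold change was -0.34 ± 0.087 (edgeR, adjusted P = 0.041), beside RNA-seq levels that overlapped.

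The doublecortin genes did not pass the test in M-cKO Ribo-seq. Dcx was 206, 203 and 189 RPKM in Ctrl and 170.1, 139 and 163 RPKM in M-cKO, without overlap, with a log2 fold change of -0.33 ± 0.095 (edgeR, adjusted P = 0.054). With DESeq2 the adjusted P was 0.013, and with protein-coding genes only it was 0.043 in edgeR. Dclk1 was 69.3, 63.0 and 68.9 RPKM in Ctrl and 52.2, 49.5 and 61.2 RPKM in M-cKO, also without overlap, with -0.29 ± 0.10 (adjusted P = 0.087). Without M-cKO library 3 it passed, at -0.37 (edgeR, adjusted P = 0.049). The log2 fold changes of Map1b (-0.17), Map2 (-0.11) and Mapt (-0.16) had adjusted P values between 0.24 and 0.56 in edgeR. Map1b was between 542 and 585 RPKM in M-cKO and between 610 and 669 RPKM in Ctrl, without overlap.

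The Ribo-seq calls in M-cKO depended on the libraries fitted. Map1a was lost without Ctrl library 2 or 3 or M-cKO library 1 or 2 (adjusted P between 0.063 and 0.14 in edgeR), and Map4 was lost without any 1 of the 6 libraries (between 0.054 and 0.14). Both were also lost with the replicate number as a block (edgeR, adjusted P = 0.062 and 0.079). Stmn1 and Stmn2 were lost without each library but M-cKO library 3 (between 0.060 and 0.11). With all 9 Ribo-seq libraries in 1 fit, which includes the F-cKO library that stood apart, none of the 10 was called (edgeR, adjusted P between 0.17 and 0.47 for these 4). That fit called 35 of all genes and had 1 of the 10 at an unadjusted P below 0.05, beside 17.4% of all genes, and DESeq2 on the 6 libraries called 5 of the 10, beside 21.8% of all genes. Over all alternatives the log2 fold change stayed between 0.39 and 0.61 for Map1a, between -0.38 and -0.29 for Map4, between -0.60 and -0.46 for Stmn1 and between -0.71 and -0.47 for Stmn2.

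In F-cKO Ribo-seq none of the 10 genes was called by edgeR, as 0% of the 14335 genes tested were. Fto itself, the deleted gene, was not called, at a log2 fold change of -2.675 (edgeR, unadjusted P = 2.44e-05, adjusted P = 0.35). An absence of calls here is therefore no evidence of unchanged levels. None of the 10 had an unadjusted P below 0.05, and DESeq2 called none of them and 6 of all genes. At an unadjusted P below 0.05, 227 genes were higher and 91 lower, 2.22% of those tested. Stmn1 was 1896, 633 and 1998 RPKM in the F-cKO libraries, Stmn2 was 249.6, 161 and 437 RPKM and Stmn3 was 427, 230.4 and 629 RPKM. Library 2 was the lowest F-cKO library for each of these, and for Stmn2 library 1 was nearer to it than to library 3. Over the 10 genes the log2 fold change against Ctrl ran from -0.47 for Stmn2 to -0.08 for Map2, with a median of -0.27, beside 0.05 for all genes tested. Without library 2 it ran from -0.23 for Stmn2 to 0.11 for Map2 with a median of -0.05, and the sign of Map1a, Map2 and Mapt changed. Without library 3, which had the highest F-cKO level of each stathmin, the median was -0.49 and 4 of the 10 had an unadjusted P below 0.05, beside 19.3% of all genes, and none was called. These were Stmn2 at -0.87, Mapt at -0.74, Stmn3 at -0.61 and Dclk1 at -0.56 (edgeR, adjusted P between 0.219 and 0.25). The interval for Stmn2 with all libraries, from -1.25 to 0.31, holds the RNA-seq value of -0.55. In the comparison of M-cKO with F-cKO none of the 10 was called by edgeR (0% of 14262 genes tested, with 710 higher and 444 lower at an unadjusted P below 0.05), nor by DESeq2, which called 200 of all genes. Fto was not called by edgeR in that comparison either, at a log2 difference of 2.846 (adjusted P = 0.1075). Map1a had an unadjusted P of 0.0082 there with a log2 difference of 0.63 (adjusted P = 0.56). With DESeq2 and without library 2, 2 of the 10 were called in that comparison, beside 4.07% of all genes: Map1a was higher in M-cKO by 0.48 (adjusted P = 0.017) and Stmn1 lower, by -0.43 (adjusted P = 0.047). With edgeR and without library 2, none of the 10 was called, and Map1a had 0.498 (adjusted P = 0.281).

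Translational efficiency (TE) is the Ribo-seq level divided by the RNA-seq level. In Ctrl the TE level was highest for Map1b, at 6.29 ± 0.520 (SD propagated from both assays, n = 3 each), and lowest for Mapt (0.982 ± 0.132) and Stmn3 (1.12 ± 0.137). Map1a had a TE level of 2.79 ± 0.533, Dcx 2.15 ± 0.190, Stmn2 2.10 ± 0.256, Map4 2.06 ± 0.145, Dclk1 2.02 ± 0.224, Map2 1.72 ± 0.215 and Stmn1 1.47 ± 0.151. These levels are per length of the whole gene model, so a gene with long untranslated ends has a lower value than its coding part alone would give. Map1b stayed highest and Mapt lowest in both knockouts, at 4.75 ± 0.944 and 1.04 ± 0.607 in F-cKO and 5.22 ± 0.413 and 1.05 ± 0.213 in M-cKO. Without F-cKO Ribo-seq library 2 the F-cKO levels were 5.21 for Map1b and 1.32 for Mapt, which were again the highest and lowest of the 10.

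**Figure D3:**
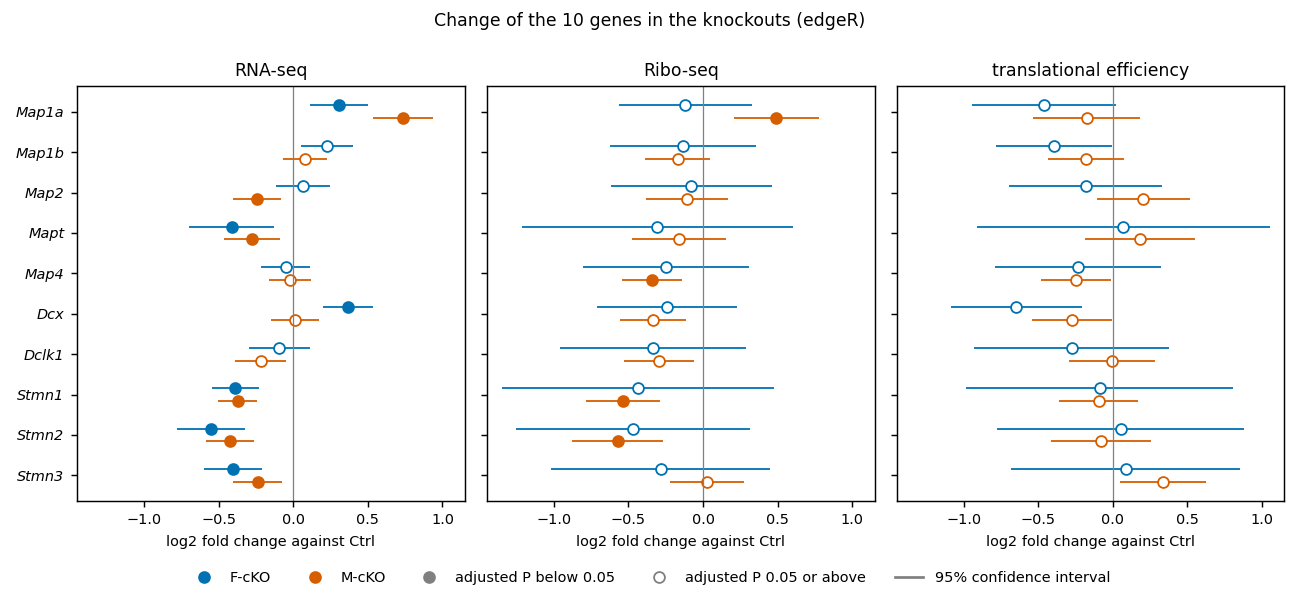
Log2 fold change of each of the 10 genes against Ctrl in RNA-seq, Ribo-seq and TE for F-cKO and M-cKO, with 95% confidence intervals from edgeR, filled circles for an adjusted P below 0.05. Filled circles lie below 0 for the stathmins and above 0 for Map1a in RNA-seq of both knockouts, the F-cKO intervals are wide in Ribo-seq, and no TE circle is filled.

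The TE of none of the 10 genes was called changed by edgeR. The share of all genes called was 1.89% higher and 1.18% lower of 13208 genes tested in M-cKO, and 0% of 13225 genes in F-cKO, where 411 were higher and 817 lower at an unadjusted P below 0.05 (9.29%) and DESeq2 called 47. In M-cKO the TE change had an unadjusted P below 0.05 for 3 of the 10, beside 21.5% of all genes tested: Stmn3 at 0.33 ± 0.13 on the log2 scale, Dcx at -0.27 ± 0.13 and Map4 at -0.25 ± 0.11 (edgeR, adjusted P = 0.17, 0.22 and 0.21). DESeq2 called none of the 10 either, beside 7.3% of all genes. With each same-numbered RNA-seq and Ribo-seq pair of a genotype as a replicate block, edgeR called none of the 10, and an unadjusted P below 0.05 was left for Stmn3 alone in M-cKO, beside 21.5% of all genes, and for Dcx and Map1a in F-cKO, beside 6.3%. For the stathmins that were lower in both assays, the TE change in M-cKO was -0.09 for Stmn1 and -0.08 for Stmn2, with 95% confidence intervals from -0.36 to 0.17 and from -0.41 to 0.26. Map1a had -0.18, with an interval from -0.53 to 0.18. In F-cKO without that block 2 of the 10 had an unadjusted P below 0.05. Dcx had the lowest TE value, -0.65 ± 0.20 on the log2 scale (edgeR, adjusted P = 0.44), and its TE level was 1.37 ± 0.377. Without F-cKO Ribo-seq library 2 the TE level was 1.58, the log2 change was -0.46 (edgeR, adjusted P = 0.18), and DESeq2 called it at -0.46 (adjusted P = 0.024), beside 2.21% of all genes called in that fit. Map1b had -0.39 ± 0.18 (adjusted P = 0.53), and -0.28 without that library. Over the 10 genes the median TE change in F-cKO was -0.21, and 0.03 without that library, when the values of Map2, Map4 and Stmn1 turned from negative to positive. In the comparison of M-cKO with F-cKO none of the 10 TE values was called, nor had any an unadjusted P below 0.05 (edgeR, 0% of 13162 genes called), and DESeq2 called none of them and 25 of all genes. Over the 10 genes the median TE difference was 0.21 on the log2 scale, and -0.01 without F-cKO Ribo-seq library 2. Without that library Stmn1 had -0.37 (edgeR, unadjusted P = 0.0144, adjusted P = 0.335), and with DESeq2 it had -0.40 (unadjusted P = 7e-04, adjusted P = 0.0602), with Map4 at -0.29 (unadjusted P = 0.0371). Without F-cKO Ribo-seq library 3, Dcx had 0.48 and Stmn3 0.59 (edgeR, unadjusted P = 0.0328 and 0.0339, adjusted P = 0.499 for both). None of these was called.

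Other genes that act on microtubules were called in both directions. The list counts that follow stand beside shares of all genes tested of 11.5% higher and 9.57% lower in F-cKO RNA-seq, 15.5% and 14.1% in M-cKO RNA-seq, and 7.13% and 7.5% in M-cKO Ribo-seq, and nothing is read from them about the lists. Of 12 tested further members of the same families, Stmn4, another neuronal stathmin, was lower in RNA-seq of F-cKO (-0.62, edgeR, adjusted P = 0.017) and of M-cKO (-0.40, adjusted P = 0.0035) and in M-cKO Ribo-seq (-0.49, adjusted P = 0.025). In M-cKO RNA-seq 3 of these 12 were higher, namely Dclk3 at 1.54, Map10 at 0.68 and Map1s at 0.27 (edgeR, adjusted P = 0.0015, 0.0013 and 0.0153). In M-cKO Ribo-seq 3 were higher, namely Map10 at 0.69, Map7d2 at 0.58 and Map1s at 0.52 (edgeR, adjusted P = 0.043, 0.037 and 0.0468), and the median of the 12 was 0.435. Dclk3 is a kinase of the doublecortin family, and Map1s and Map7d2 bind along microtubules. Of 13 end-binding and polymerase factors, 3 were higher and 1 lower in F-cKO RNA-seq, and 2 were higher and 3 lower in M-cKO. Ckap5, a microtubule polymerase, was higher in both (0.53 and 0.21, edgeR, adjusted P = 0.0029 and 0.025), as was Camsap2, which binds minus ends (0.29 and 0.21, adjusted P = 0.0131 and 0.0349). Mapre3, an end-binding protein of neurons, was lower in both (-0.31 and -0.30, edgeR, adjusted P = 0.014 and 0.0038). Of the plus-end CLASP proteins, Clasp1 was higher in F-cKO (0.35) and Clasp2 lower in M-cKO (-0.23, edgeR, adjusted P = 0.0044 and 0.0195). In M-cKO Ribo-seq 0 of the 13 were higher and 2 lower, Mapre2 at -0.73 and Mapre3 at -0.46 (edgeR, adjusted P = 0.0315 and 0.047), and Clip1 had a higher TE (0.56, adjusted P = 0.0316). Of the severing enzymes, 6 tested in RNA-seq and 7 in Ribo-seq, Fignl1 was higher in F-cKO (0.55) and in M-cKO (1.09) RNA-seq and in M-cKO Ribo-seq (0.74, edgeR, adjusted P = 0.0090, 5.0e-05 and 0.019). In M-cKO RNA-seq Fign was also higher (0.75) and Katnal2 lower (-0.60, edgeR, adjusted P = 0.0214 and 0.0254).

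Among 12 kinases and kinase partners that phosphorylate MAPs and stathmins, 1 was higher and 2 were lower in F-cKO RNA-seq, and 3 were lower in M-cKO. Cdk5, a kinase of tau and doublecortin, was lower in both (-0.27 and -0.22, edgeR, adjusted P = 0.020 in each), Cdk5r2, an activator of Cdk5, was lower in F-cKO (-0.76, adjusted P = 0.0212), Gsk3b was higher in F-cKO (0.41, adjusted P = 0.0054), and the JNK kinases Mapk8 (-0.24) and Mapk10 (-0.32) were lower in M-cKO (edgeR, adjusted P = 0.015 and 0.014). In M-cKO Ribo-seq edgeR called 0 of the 12, 7 had an unadjusted P below 0.05, beside 34.1% of all genes, and DESeq2 called 2, with a median log2 fold change of -0.15. Of 7 genes of the Lis1 and dynein machinery that moves the nucleus with doublecortin, 2 were higher and 1 lower in F-cKO RNA-seq and 1 was higher and 1 lower in M-cKO. Nde1, a partner of Lis1, was higher in both (0.59 and 0.49, edgeR, adjusted P = 0.0174 and 0.0073), and Dync1h1, the dynein heavy chain, in F-cKO (0.23, adjusted P = 0.0284). Dync1i1, a dynein intermediate chain, was lower by -0.52 in F-cKO and by -1.13 in M-cKO on the log2 scale (edgeR, adjusted P = 0.019 and 2.1e-05), and by -1.38 in M-cKO Ribo-seq (adjusted P = 0.0093). Pafah1b1, which encodes Lis1, was lower in M-cKO Ribo-seq (-0.56, edgeR, adjusted P = 0.017). Of 11 tubulin-modifying enzymes, 1 was higher and 2 lower in F-cKO RNA-seq, and 3 were higher and 4 lower in M-cKO. Tpgs1, a subunit of the polyglutamylase, was higher in M-cKO RNA-seq (1.05), Ribo-seq (1.58) and TE (0.60, edgeR, adjusted P = 1.2e-05, 0.00046 and 0.016). Vash1, which removes the last tyrosine of tubulin, was higher in both knockouts in RNA-seq (0.51 in each, edgeR, adjusted P = 0.0072 and 0.0018), and its partner Svbp was lower in F-cKO (-0.26) and higher in M-cKO (0.40, adjusted P = 0.0392 and 0.00088). The deacetylase Sirt2 was lower in F-cKO (-0.19, edgeR, adjusted P = 0.0305). Atat1, the tubulin acetyltransferase, was lower in M-cKO RNA-seq (-0.34) and Ribo-seq (-0.48, edgeR, adjusted P = 0.0015 and 0.0339), and Vash2 was lower in M-cKO Ribo-seq (-0.51, adjusted P = 0.0418).

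Markers of other cell types moved beside the 10 genes, and their part in the values above was not tested. Of 10 pan-neuronal markers, 6 were lower and 1 higher in F-cKO RNA-seq, and 5 were lower and 1 higher in M-cKO. Their summed level was between 1510 and 1790 FPKM in F-cKO, between 1760 and 1910 FPKM in M-cKO and between 1910 and 2170 FPKM in Ctrl. The sum rests on Tubb3, which made up 63.0% of it in Ctrl RNA-seq and 82.3% in Ctrl Ribo-seq. Tubb3 was called lower in F-cKO RNA-seq (-0.30, edgeR, adjusted P = 0.022) and was not called in M-cKO. The 4 cycling markers were all higher in both knockouts, with sums between 73.7 and 92.1 FPKM in F-cKO, between 64.9 and 67.4 FPKM in M-cKO and between 36.6 and 49.0 FPKM in Ctrl. The 3 intermediate progenitor markers summed to between 169 and 220.0 FPKM in F-cKO, between 149 and 166 FPKM in M-cKO and between 85.0 and 142 FPKM in Ctrl, with 3 called higher in F-cKO and 1 in M-cKO. Cortical excitatory markers were above Ctrl, with 3 of 7 higher in F-cKO and 5 higher and 1 lower in M-cKO (sums between 862 and 884 and between 974 and 988 FPKM, and between 757 and 791 FPKM in Ctrl).

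**Figure D4:**
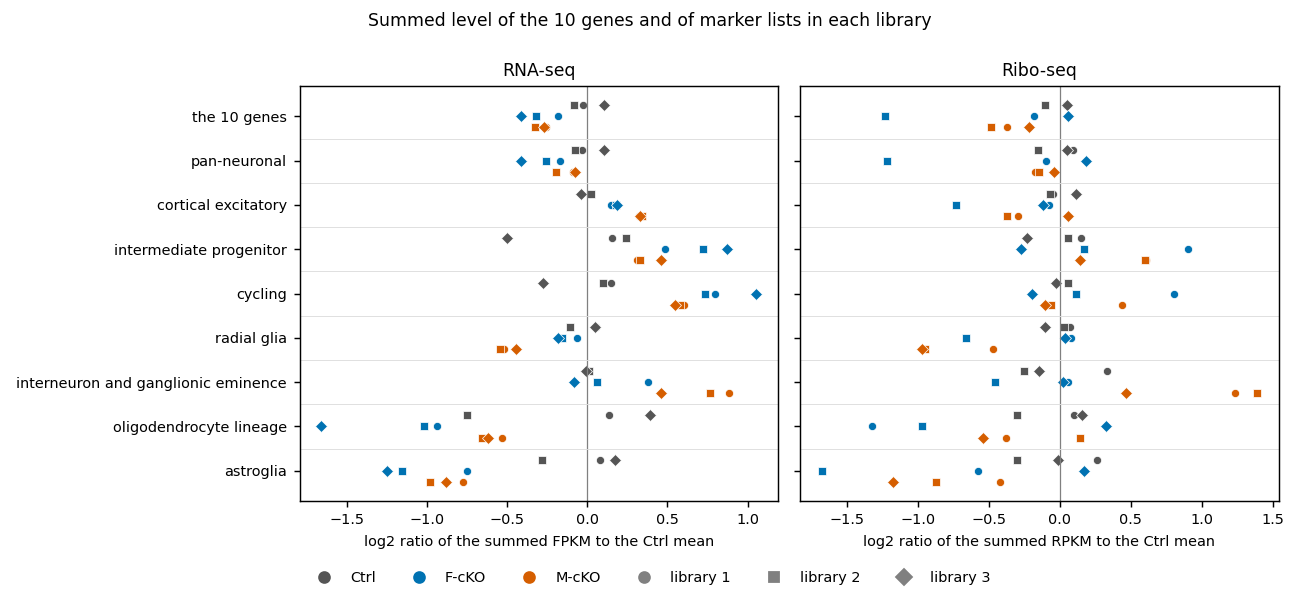
Log2 ratio of the summed level of the 10 genes and of 8 marker lists in each library to the Ctrl mean (FPKM in RNA-seq, RPKM in Ribo-seq), with colours for genotypes and symbols for libraries 1 to 3. In RNA-seq the sum of the 10 genes, of which Stmn1 makes up 54.0% in Ctrl, lies below Ctrl in all 6 knockout libraries. The cycling sum lies above Ctrl in them. In Ribo-seq the F-cKO library 2 is at -1.24 for the 10 genes and -1.22 for the pan-neuronal list.

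Of 8 radial glia markers, 4 were higher and 2 lower in F-cKO RNA-seq and 3 were higher and 2 lower in M-cKO. Their summed level was between 721 and 783 FPKM in F-cKO, between 560.0 and 602 FPKM in M-cKO and between 762 and 851 FPKM in Ctrl, while the median log2 fold change of the list was 0.427 and 0.123. The sum rests on Fabp7, which made up 72.4% of it in Ctrl and was lower in both knockouts (-0.43 and -0.97 on the log2 scale, edgeR, adjusted P = 0.0134 and 2.56e-05), whereas Sox2 was higher in both (0.45 and 0.90, adjusted P = 0.0064 and 3.19e-05). Both genes were named after their values were seen. The 6 interneuron and ganglionic eminence markers were all higher in M-cKO (118 to 159 FPKM, against 85.4 to 86.5 FPKM in Ctrl) and 2 were higher in F-cKO (81.1 to 112 FPKM). The astroglia markers, 3 in all, were lower in both knockouts, with Gfap at -2.81 in F-cKO and -3.52 in M-cKO (edgeR, adjusted P = 0.00293 and 3.55e-05) and a mean level of 3.25 FPKM in Ctrl. Of 4 oligodendrocyte markers edgeR called 4 lower for F-cKO and DESeq2 3, and for M-cKO edgeR called 1 and DESeq2 0. Of 4 microglia markers 0 were called in either knockout by edgeR or DESeq2 (0 in F-cKO and 1 in M-cKO at an unadjusted P below 0.05), and 1 of 3 endothelium markers was lower in F-cKO (1 by DESeq2). Of 4 meninges markers edgeR called 2 lower in F-cKO and DESeq2 called 0. Of 4 erythroid markers Hbb-y, an embryonic beta globin, was higher in both knockouts, by 4.91 in F-cKO and 3.27 in M-cKO on the log2 scale (edgeR, adjusted P = 0.0126 and 0.00707) and by 3.54 in M-cKO Ribo-seq (adjusted P = 0.00853). Its mean level was 0.983 FPKM in Ctrl, 31.0 FPKM in F-cKO and 9.89 FPKM in M-cKO, and reads of the beta globin genes can be hard to tell apart. These differences of Gfap and Hbb-y, named after their values were seen, were larger than that of any of the 10 genes. No marker was at 0 in all libraries. In M-cKO Ribo-seq edgeR called 0 of the 10 pan-neuronal markers, 2 had an unadjusted P below 0.05, beside 34.1% of all genes, and DESeq2 called 1, and their summed level was between 3220 and 3530 RPKM against 3270 to 3880 RPKM in Ctrl. Of the 6 interneuron markers 3 were called higher there by edgeR and 6 by DESeq2, with a median log2 fold change of 1.19 and sums between 62.2 and 118 RPKM against 37.8 to 56.6 RPKM in Ctrl. In the same comparison edgeR called 2 of 7 cortical excitatory markers higher and 1 lower, 1 of 8 radial glia markers higher and 1 lower, 1 of 4 cycling and 1 of 4 erythroid markers higher and 1 of 3 astroglia markers lower. The F-cKO Ribo-seq library 2 had the lowest pan-neuronal sum of the 9, at 1560 RPKM.

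Genes whose level followed that of a member most closely over the 9 RNA-seq libraries were named by Pearson's r of log2 library-scaled counts (TMM) among 16471 genes. For Stmn2 these were Fam3c (r = 0.995), Faah (0.993) and Kctd4 (0.991). For Dcx they were Syncrip (0.985), Ipo7 (0.983) and Arhgef12 (0.980). For Map1b they were Wdr7 (0.976), G3bp2 (0.974) and Dip2c (0.967), and those named for Map4 were Gm13414 (0.928) and Arl15 (0.917). The 9 points share 3 genotypes and their libraries, so these values describe the pattern only.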

How the data were processed

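RNA-seq and Ribo-seq were made from E15.5 cortices, with 3 libraries per genotype and assay, grouped by the labels. The labels call the libraries biological repeats without naming animals or litters, so P values measure the spread between these libraries, which may be in part technical. From the wording of the methods it is unclear whether the Ribo-seq samples shared a litter. The authors aligned RNA-seq reads with HISAT2 2.0.5 and deposited a count per gene. The counting tool is not given in the sources used here. Ribo-seq fragments were mapped by the authors with TopHat2 to mm10 and counted with HTSeq to give the deposited count table. FPKM and RPKM values were deposited by the authors. With the count totals, the gene lengths they imply had 1 proportion between the assays for all 10 genes within a same-numbered library pair. That proportion ran from 1.092 (F-cKO 2) to 1.277 (M-cKO 1) between pairs, so the deposited levels were not scaled by the count totals alone. This enters the FPKM, RPKM and TE levels but not the tests, which used counts. Of the Ribo-seq genes, 40490 with blanks were left out and 14348 were used.

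Counts were fitted in R 4.3.3 with edgeR 4.0.16 (filterByExpr, minimum count 10 and minimum total 15, TMM, quasi-likelihood test), each comparison over its own 6 libraries. TE was tested as the assay-by-genotype term over 12 libraries, with the filter applied within each assay. RiboDiff was not run. Adjustment for multiple tests followed Benjamini and Hochberg across every gene in the fit, and calls were made below 0.05. The standard error is that of the log2 fold change. Alternatives were DESeq2 1.42.0, RLE scaling, no filter, all 3 genotypes in 1 fit, a replicate block, each library left out and protein-coding genes only. Leaving out F-cKO Ribo-seq library 2 with DESeq2, and a block for each RNA-seq and Ribo-seq pair of 1 genotype and number in the TE fits, were added after seeing the data. All 10 genes are named. From each pathway list, genes called against Ctrl are named by smallest adjusted P, at most 4 per comparison. The 3 genes most like Map1b, Dcx, Stmn2 and Map4 are named, except for 1 that is not reported here. The genes and lists were chosen with earlier results of these data known. Locations and upstream sequences are from RefSeq GRCm38.p6, whose promoter table held 7 of the 10 genes.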

Additional observations from a re-analysis of the deposited data

Results flagged for a closer look

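In RNA-seq 3 of the 10 genes differed between the knockouts in the direct test of M-cKO against F-cKO (edgeR, Benjamini-Hochberg adjusted), 1 higher and 2 lower in M-cKO, beside 13.1% and 14.3% of all genes tested. Map1a was higher in M-cKO by 0.42 on the log2 scale (adjusted P = 0.0034), with all 3 M-cKO libraries above all 3 F-cKO libraries. Dcx differed by -0.37 (adjusted P = 0.0064) and Map2 by -0.32 (adjusted P = 0.013), with all 3 M-cKO libraries below all 3 F-cKO libraries for each. The calls of Map1a and Dcx held with each library left out in turn, with adjusted P values up to 0.016 and 0.029, and that of Map2 was lost without F-cKO library 2 (adjusted P = 0.0502). In Ribo-seq edgeR called none of the 3 in this comparison, as it called 0% of the 14262 genes tested. Fto, the gene deleted in F-cKO, was not called there either (2.846, edgeR, adjusted P = 0.1075). With DESeq2 and without F-cKO Ribo-seq library 2, Map1a was called higher in M-cKO (0.48, adjusted P = 0.017), and Dcx and Map2 were not called.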

How the results depend on the processing

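Within an assay the replicate numbers did not pair the genotypes: deviations of same-numbered libraries correlated between -0.14 and 0.16 in RNA-seq and between -0.28 and 0.16 in Ribo-seq. Between the assays, same-numbered libraries of 1 genotype correlated between 0.11 and 0.265 in Ctrl and between 0.103 and 0.328 in M-cKO, but between -0.276 and -0.0186 in F-cKO, so TE was also fitted with each such pair as a replicate block. That called 456 genes for TE of M-cKO, 0 in the other TE comparisons and none of the 10, and the F-cKO values of Mapt, Stmn2 and Stmn3 turned negative (-0.0697, -0.0525 and -0.00679). With the number as a replicate block across genotypes, edgeR called 2130 genes in RNA-seq of F-cKO, where Mapt was lost, and 1319 genes in Ribo-seq of M-cKO, where Map1a (0.50, adjusted P = 0.0617) and Map4 (-0.34, adjusted P = 0.0791) were lost and 2 of the 10 genes were called, and TE of F-cKO turned negative for Mapt (-0.0252) and Stmn2 (-0.0231). The cause was not tested. With all 3 genotypes in 1 fit, which adds the F-cKO libraries to the spread, 35 genes and 0 of the 10 were called in Ribo-seq of M-cKO, 1 in Ribo-seq of F-cKO, 25 in Ribo-seq of M-cKO against F-cKO, 11 for TE of M-cKO and 5 for TE of M-cKO against F-cKO. DESeq2 called 6, 200, 47, 1044 and 25 genes in Ribo-seq of F-cKO, Ribo-seq of M-cKO against F-cKO, TE of F-cKO, TE of M-cKO and TE of M-cKO against F-cKO, and RLE scaling called 1 in the last of these. DESeq2 without F-cKO Ribo-seq library 2 called 39 genes in Ribo-seq of F-cKO, 584 genes and 2 of the 10 against M-cKO, 317 genes and 1 of the 10 for TE of F-cKO and 115 for TE of M-cKO against F-cKO. In the same fit the Ribo-seq log2 fold changes of Map1a, Map2 and Mapt in F-cKO turned positive (0.016, 0.11 and 0.0081), as did TE of Map2, Map4 and Stmn1 (0.0429, 0.0133 and 0.284).

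With each library left out in turn, genes called ranged from 1543 to 3474 in RNA-seq of F-cKO and from 2767 to 4566 in M-cKO against F-cKO, and in RNA-seq of M-cKO from 3546 to 4657, with 3 to 7 of the 10. In Ribo-seq they ranged from 0 to 1 in F-cKO, from 177 to 2547 with 0 to 4 of the 10 in M-cKO, and from 0 to 5 between the knockouts. For TE they ranged from 0 to 15 in F-cKO, from 65 to 1054 in M-cKO and from 0 to 5 between the knockouts. Among the values against Ctrl and the RNA-seq values given between the knockouts, those that changed sign were never called: in RNA-seq Map4 (-0.10 to 0.0089 in F-cKO, -0.059 to 0.023 in M-cKO), Dcx in M-cKO (-0.040 to 0.079) and Stmn1 between the knockouts (-0.013 to 0.064), in Ribo-seq of F-cKO Map1a (-0.20 to 0.018), Map2 (-0.18 to 0.11) and Mapt (-0.74 to 0.0081), in Ribo-seq of M-cKO Stmn3 (-0.049 to 0.097), for TE of M-cKO Stmn2 (-0.24 to 0.0058) and Dclk1 (-0.116 to 0.0746), and for TE of F-cKO Map2 (-0.307 to 0.0495), Mapt (-0.393 to 0.424), Map4 (-0.442 to 0.0201), Stmn1 (-0.325 to 0.291), Stmn2 (-0.403 to 0.327) and Stmn3 (-0.288 to 0.383). Fewer libraries and the 3.27-fold range of Ribo-seq depth limit what these counts can show.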
